A study of Mus musculus with 11 samples.

Results

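The transcripts described here are those of 41 mitosis and kinetochore genes, among 27179 genes counted by RNA-seq in epithelial cells of the pubertal mouse mammary gland. They were chosen by name, as genes of mitosis and of the kinetochore, and were matched to the Entrez gene identifiers of the count table; 41 of 41 were matched. The 11 libraries came from C57BL/6 female mice aged 5 weeks that carry the Ecadherin-GFP allele, which labels the epithelium green through the adhesion protein E-cadherin; every group, ducts included, carries it. Terminal end buds (TEBs), the club-shaped growing tips of pubertal ducts, and the ducts behind them were dissected apart, and basal and luminal cells were sorted as Lin-CD29+CD24+ cells with low and high GFP. There were 3 libraries each of basal duct, basal TEB and luminal TEB, and 2 of luminal duct, replicates 1 and 3. Each replicate was a pool of at least 2 mice, so differences between single animals are not resolved. All groups derive from 3 such pools, and the labels do not say whether equal replicate numbers mark the same pool.

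Cells that divide make these transcripts mostly late in the cell cycle. In G2 the kinase Cdk1 and its cyclins, with the transcription factor Foxm1, drive entry into mitosis. The kinetochore, a protein assembly on the centromere, then holds chromosomes to spindle microtubules while the spindle checkpoint delays anaphase, and the central spindle and an actin ring finally divide the cell. In the pubertal gland the TEBs are known as the sites of rapid growth. In bulk samples a larger share of dividing cells and more of a transcript in each cell cannot be told apart.

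Promoters of this class of gene often carry a CHR element and one or more CCAAT boxes, sequences through which cell cycle repressor and activator complexes act. RefSeq promoter sequences (build GRCm38.p6) were at hand for 34 of the 41 genes, and a window from 220 bases before to 30 bases after the start was searched on both strands. The letters TTTGAA or TTCGAA, as a CHR element, were found in 22 of these 34 genes (64.7%), against 14.1% of the 12759 tested genes with a promoter sequence. A CCAAT box (CCAAT) was found in 25 of 34 (73.5%, against 39.1%), and both kinds in 1 window in 20 of 34 (58.8%, against 5.42%). The E2F-type letters TTTCCCGC, TTTGGCGC or TTTCGCGC were found in 1 of 34 (2.94%, against 3.28%), and in 12 of 31 DNA replication genes (38.7%). Of the same 31 genes 8 (25.8%) held a CHR element. These are matches of letters and not evidence of a bound factor.

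The windows of the 5 genes that passed the test below are shown first. They lie on GRCm38.p6 at chr13:100775870-100776119 (Cenph, minus strand), chr11:117849017-117849266 (Birc5, plus), chr7:122159215-122159464 (Plk1, plus), chr3:135212343-135212592 (Cenpe, plus) and chrX:100625845-100626094 (Kif4, plus), are written 5′ to 3′ on the strand of the gene, and carry the matched letters in capitals.
Cenph: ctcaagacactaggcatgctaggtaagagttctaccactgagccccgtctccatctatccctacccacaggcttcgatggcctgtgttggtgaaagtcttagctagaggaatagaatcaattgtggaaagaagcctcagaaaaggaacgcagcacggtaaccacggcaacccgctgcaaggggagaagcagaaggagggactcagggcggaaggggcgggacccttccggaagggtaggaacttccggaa
Birc5: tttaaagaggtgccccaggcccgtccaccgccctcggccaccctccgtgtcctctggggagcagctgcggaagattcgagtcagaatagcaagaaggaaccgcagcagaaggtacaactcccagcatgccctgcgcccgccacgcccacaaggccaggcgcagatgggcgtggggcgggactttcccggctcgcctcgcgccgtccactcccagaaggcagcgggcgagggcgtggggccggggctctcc
Plk1: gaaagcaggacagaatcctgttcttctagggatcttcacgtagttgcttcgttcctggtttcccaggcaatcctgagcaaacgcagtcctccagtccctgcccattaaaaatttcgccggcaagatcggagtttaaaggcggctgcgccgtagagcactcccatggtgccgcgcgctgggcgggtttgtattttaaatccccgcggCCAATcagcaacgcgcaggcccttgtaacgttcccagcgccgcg
Cenpe: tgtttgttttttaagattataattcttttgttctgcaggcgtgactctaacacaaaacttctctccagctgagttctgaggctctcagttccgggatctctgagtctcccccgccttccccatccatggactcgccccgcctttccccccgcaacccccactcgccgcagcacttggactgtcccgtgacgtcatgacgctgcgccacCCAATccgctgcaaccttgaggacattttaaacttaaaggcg
Kif4: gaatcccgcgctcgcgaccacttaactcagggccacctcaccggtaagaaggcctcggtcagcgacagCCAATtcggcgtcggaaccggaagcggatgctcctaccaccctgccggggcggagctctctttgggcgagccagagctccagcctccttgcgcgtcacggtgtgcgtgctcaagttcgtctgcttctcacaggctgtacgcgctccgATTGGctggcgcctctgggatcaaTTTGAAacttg
Of these, Kif4 held both kinds of element, Plk1 and Cenpe held a CCAAT box 14 and 12 bases before the start, and Cenph and Birc5 held none of the letters searched. The genes most used as markers of dividing cells are shown for comparison, with Pttg1, the gene of the smallest changes below. They lie at chr7:135716350-135716599 (Mki67, minus strand), chr11:99024160-99024409 (Top2a, minus), chr13:100786457-100786706 (Ccnb1, minus), chr10:69352883-69353132 (Cdk1, minus) and chr11:43425952-43426201 (Pttg1, minus).
Mki67: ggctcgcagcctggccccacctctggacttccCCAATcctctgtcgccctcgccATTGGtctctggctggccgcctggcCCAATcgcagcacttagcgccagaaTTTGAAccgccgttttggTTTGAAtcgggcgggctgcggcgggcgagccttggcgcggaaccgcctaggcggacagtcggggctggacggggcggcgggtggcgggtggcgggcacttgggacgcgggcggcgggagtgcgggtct
Top2a: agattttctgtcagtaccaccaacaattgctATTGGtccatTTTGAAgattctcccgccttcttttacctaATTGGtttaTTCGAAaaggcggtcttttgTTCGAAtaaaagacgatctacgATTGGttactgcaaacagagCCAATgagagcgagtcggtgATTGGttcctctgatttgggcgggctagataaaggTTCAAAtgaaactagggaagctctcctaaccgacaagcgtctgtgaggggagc
Ccnb1: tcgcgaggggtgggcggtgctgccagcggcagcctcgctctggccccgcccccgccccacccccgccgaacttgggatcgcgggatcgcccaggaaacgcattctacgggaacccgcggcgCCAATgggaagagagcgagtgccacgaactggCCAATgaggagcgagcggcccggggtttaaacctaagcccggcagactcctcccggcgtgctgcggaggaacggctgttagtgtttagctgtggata
Cdk1: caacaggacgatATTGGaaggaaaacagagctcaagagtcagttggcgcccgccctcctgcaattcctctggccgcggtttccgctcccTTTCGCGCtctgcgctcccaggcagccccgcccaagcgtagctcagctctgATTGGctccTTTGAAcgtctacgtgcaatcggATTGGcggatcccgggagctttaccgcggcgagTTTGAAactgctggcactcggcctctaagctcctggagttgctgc
Pttg1: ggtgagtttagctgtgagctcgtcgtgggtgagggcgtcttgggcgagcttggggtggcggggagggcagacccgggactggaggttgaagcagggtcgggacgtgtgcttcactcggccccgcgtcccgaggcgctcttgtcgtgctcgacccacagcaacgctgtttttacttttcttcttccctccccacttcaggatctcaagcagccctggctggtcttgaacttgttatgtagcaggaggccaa
Of the letters searched, Top2a held 4 CHR elements and 5 CCAAT boxes, Mki67 2 and 3, and Cdk1 2 and 3 with 1 E2F-type match. Ccnb1 held 2 CCAAT boxes only, and Pttg1 none. Other spellings of the CHR element were not searched.

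Levels are given as CPM, counts scaled to library size after TMM normalisation (normalised CPM). Totals ranged from 27989137 to 49221436 counts. All 41 genes passed the filter on low counts, and 40 of them had at least 10 counts in each of the 11 libraries. The exception was Cenpk, which had 0 counts in basal TEB replicate 1, where 3 counts correspond to 0.173 CPM. Counts on mitochondrial genes took 37.5% of that library, 28.5% of luminal duct replicate 3 and 4.34% to 17.8% of the others. Basal markers (8 of 8 counted) summed to between 16527 and 20419 CPM in basal duct, 5671 and 8752 in basal TEB, 99.0 and 271 in luminal duct and 15.5 and 28.6 in luminal TEB. They were thus lower in TEB in both cell types, with median log2 fold changes of -1.85 in basal and -3.08 in luminal cells. In basal cells 4 of 8 were called lower (1.16% of all genes) and in luminal cells 7 of 8 (0.771%). The luminal values rest on the low levels just given, of which the 271 CPM were in luminal duct replicate 3. Luminal markers (10 of 10 counted) summed to between 13610 and 20507 CPM in luminal duct, 14192 and 16176 in luminal TEB, 744 and 852 in basal duct and 537 and 557 in basal TEB. Fibroblast markers (8 of 8 counted) summed to between 444 and 881 CPM in basal duct, 227 and 421 in basal TEB, 6.03 and 267 in luminal duct and 12.1 and 54.4 in luminal TEB. Immune markers (7 of 7 counted) summed to between 12.3 and 85.9 CPM in basal duct, 3.46 and 17.6 in basal TEB, 1.78 and 193 in luminal duct and 1.35 and 14 in luminal TEB. The higher luminal duct sums of fibroblast (267 CPM) and immune markers (193 CPM) were both those of replicate 3, 1 of the 2 luminal duct libraries. Cd74, for example, was at 136 CPM there and 0.228 CPM in replicate 1. The 5 adipocyte markers summed to at most 187 CPM, in basal duct, and Adipoq, which defines adipocytes, was at 0 in 3 of the 4 groups. In basal TEB Adipoq was at 2.14, 0.421 and 2.13 CPM. The endothelial markers summed to at most 202 CPM and the erythroid markers (5 of 6 counted) to at most 31.3 CPM, both in ductal libraries. How far these cells bear on the levels below was not tested.

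The summed level of the 41 genes differed from library to library. It was 2126, 731 and 2073 CPM in basal duct replicates 1, 2 and 3, and 2502, 3182 and 3307 CPM in basal TEB. In luminal cells it was 1075 and 1248 CPM in duct and 3031, 2780 and 3312 CPM in TEB. On this scaling every TEB library lay above every ductal one in both cell types. On library totals alone basal TEB replicate 1 summed to 1549 CPM, below basal duct replicates 1 (2166) and 3 (2173). As a share of counts outside mitochondrial genes, without TMM, it held 0.248%, and basal duct replicates 1 and 3 held 0.232% and 0.235%. The order in basal cells thus depends on how that library is scaled. Statements on overlap below are likewise for TMM-scaled values. Basal duct replicate 2 stood apart: it was the lowest of its group for 40 of the 41 genes (97.6%, against 34.9% of all genes tested), and the exception was Pttg1. The same library held the highest sums of its group for fibroblast (881 CPM), immune (85.9 CPM), endothelial (202 CPM) and adipocyte markers (187 CPM). The endothelial Pecam1, for example, was at 73.0 CPM there and at 2.85 and 5.54 CPM in replicates 1 and 3, and the adipocyte and endothelial Fabp4 at 179 against 0.479 and 9.90 CPM. The adipocyte sum of replicate 2 was thus mostly Fabp4. Adipoq and Plin1 were at 0 in replicate 2, Cidec was at 5.29 CPM, and Lep was at 2.79 CPM against 3.59 CPM in replicate 1. The part of non-epithelial cells in the low levels of the 41 genes was not tested. The coefficient of variation within basal duct had a median of 49.5% over the 41 genes and 20% over all genes with a mean of at least 5 CPM, whereas in luminal TEB the medians were 10.1% and 8.43%. Luminal TEB replicate 3 was the highest of its group for 36 of the 41 (87.8%, against 30.7% of all genes tested). Luminal TEB replicate 2 was the lowest for 33 (80.5%, against 30.7%). A list of 39 DNA replication genes was likewise lower in the ductal libraries, at 859 to 1658 CPM in basal duct, 1774 to 2394 in basal TEB, 1114 to 1146 in luminal duct and 2354 to 2736 in luminal TEB. The ratio of both sums was lowest in basal duct replicate 2 (0.85) and highest in basal TEB replicate 2 (1.43).

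**Figure D1:**
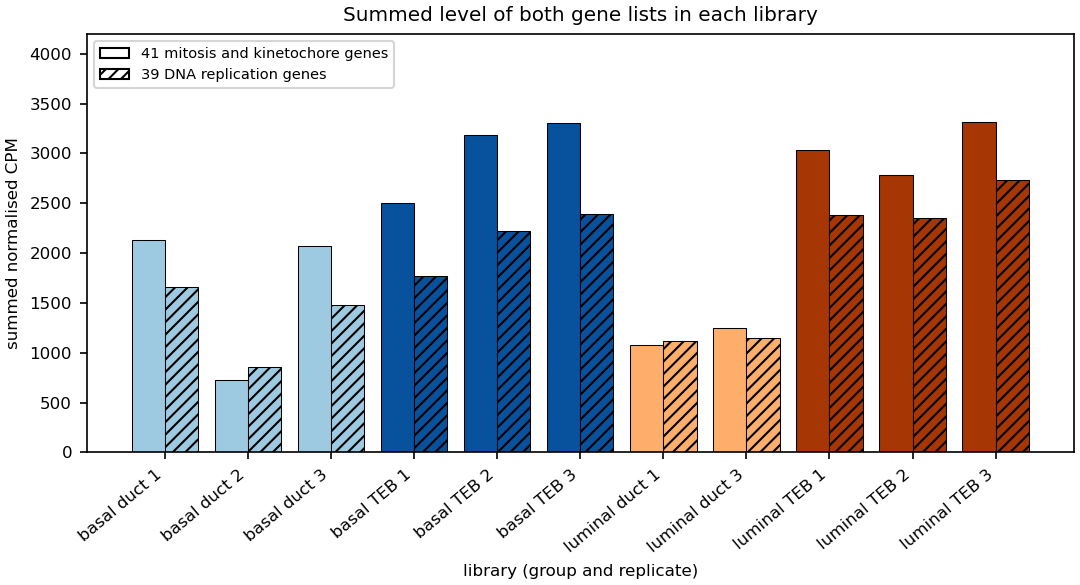
Summed normalised CPM (vertical axis) of the 41 mitosis and kinetochore genes (plain bars) and of 39 DNA replication genes (hatched bars) in each of the 11 libraries. With TMM scaling all TEB libraries stand above all ductal libraries of the same cell type in both lists, which on library totals does not hold for the 41 genes in basal TEB replicate 1 (1549 CPM), and basal duct replicate 2 is the lowest bar of each list.

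**Figure D2:**
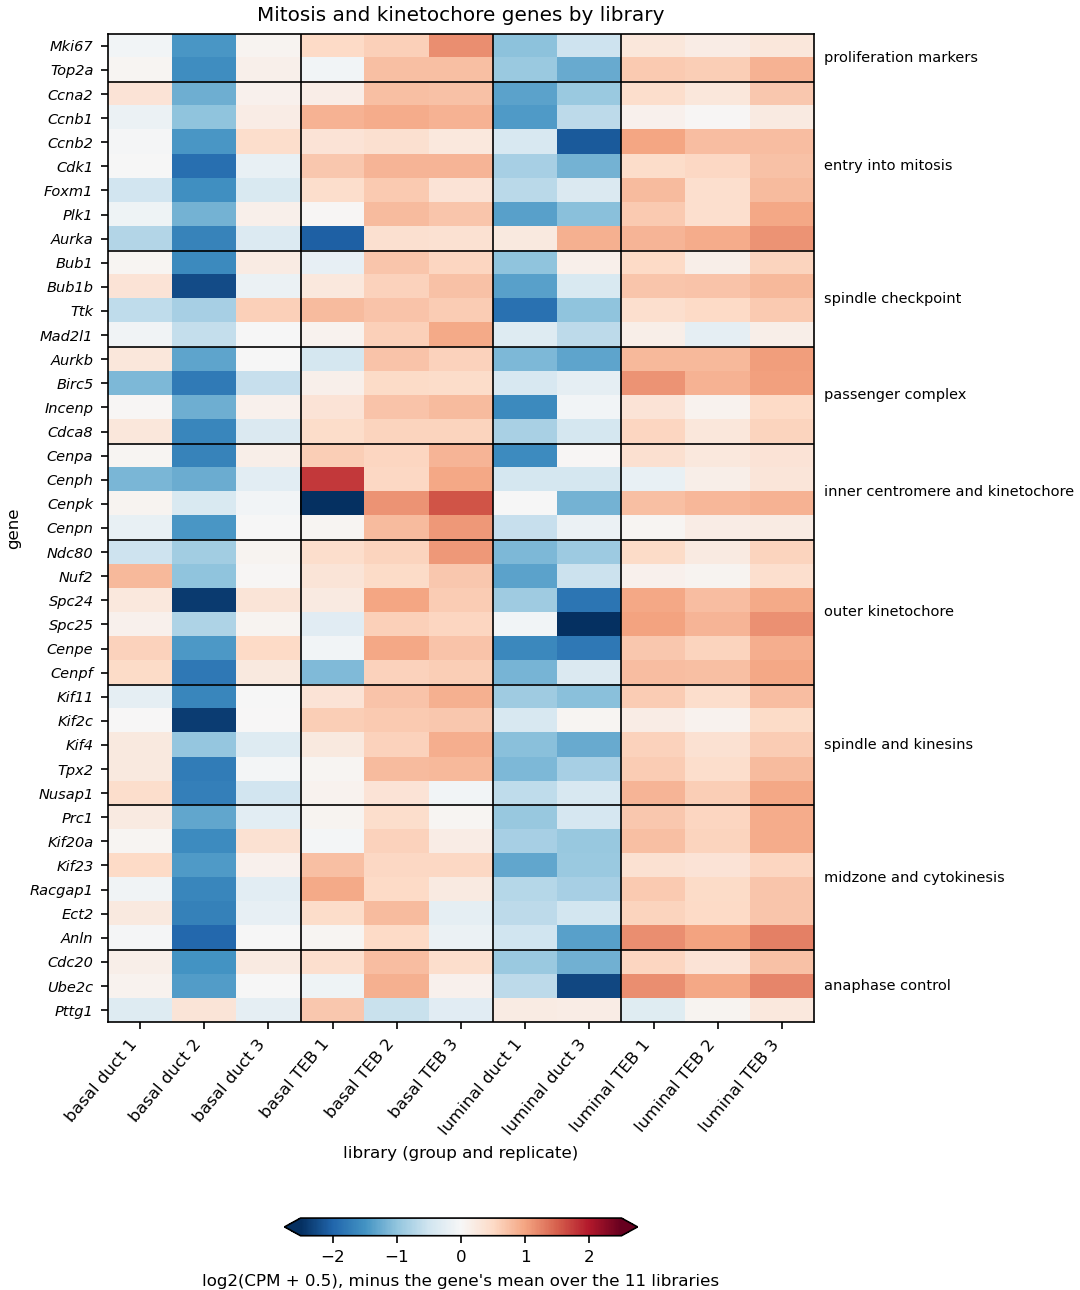
Heat map of the 41 genes (rows, ordered by role) in the 11 libraries (columns), coloured by log2(CPM + 0.5) minus the mean of the gene over the 11 libraries, with colours limited to 2.5 in either direction. Ductal columns are mostly blue and TEB columns mostly red; basal duct replicate 2 is the bluest column, and the Cenpk cell of basal TEB replicate 1 is at 0 counts.

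Set per kilobase of exon, so that genes can be compared, the mean level over the 4 groups was highest for Top2a (40.6 RPKM), Ube2c (40), Cenpa (36.2) and Mki67 (34.5), and lowest for Cenpk (3.86), Cenpf (5.84) and Ttk (6.28).

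The first comparison asked how basal cells of the TEB differ from basal cells of the duct. The log2 fold change was above 0 for 41 of 41 genes, against 46.9% of the 17370 genes tested, with a median of 0.84 (1.79-fold) against -0.03 over all genes. It ranged from 0.09 to 2.05 and was above 1 for 11 genes. Only 2 of the 41 passed an FDR of 0.05 in the quasi-likelihood test of edgeR, adjusted after Benjamini and Hochberg, both higher in TEB; of all genes tested 0.167% were called higher and 1.16% lower, 1.32% in all. At an unadjusted p under 0.05 there were 19 genes, all higher (6.62% of all genes were higher and 7.84% lower at this p), and the libraries did not overlap for 19 genes (8.88% of all genes). The count of calls was 0 without basal duct replicate 1 or 2, basal TEB replicate 1 or 3, or any 1 luminal TEB library, and 1 without basal TEB replicate 2. Without basal duct replicate 2 the median was 0.47 and 40 genes had a change above 0.

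The same comparison in luminal cells gave a larger median. The log2 fold change was above 0 for 40 of 41 genes, against 52.1% of all genes, with a median of 1.49 (2.80-fold) against 0.04. It ranged from -0.17 to 2.46 and was above 1 for 31 genes. An FDR of 0.05 was passed by 3 genes, all higher in TEB, where 0.639% of all genes were called higher and 0.771% lower, 1.41% in all. At an unadjusted p under 0.05 there were 31 genes, all higher (8.38% of all genes were higher and 8.22% lower at this p), and 39 genes did not overlap (26.2% of all genes). The count of calls was 22 without basal duct replicate 2, 5 without basal TEB replicate 1, 4 without luminal duct replicate 1, 1 without basal duct replicate 1 or 3, and 0 without any other 1 library. Of all genes, 2.04% were called without basal duct replicate 2 and 2.52% without basal TEB replicate 1. With the luminal libraries filtered, scaled and fitted alone, 24 of the 41 were called, and 3.92% of all genes. With the replicate number as a block the luminal count was 0 (0.72% of all genes) and the basal count 2 (1.17%).

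**Figure D3:**
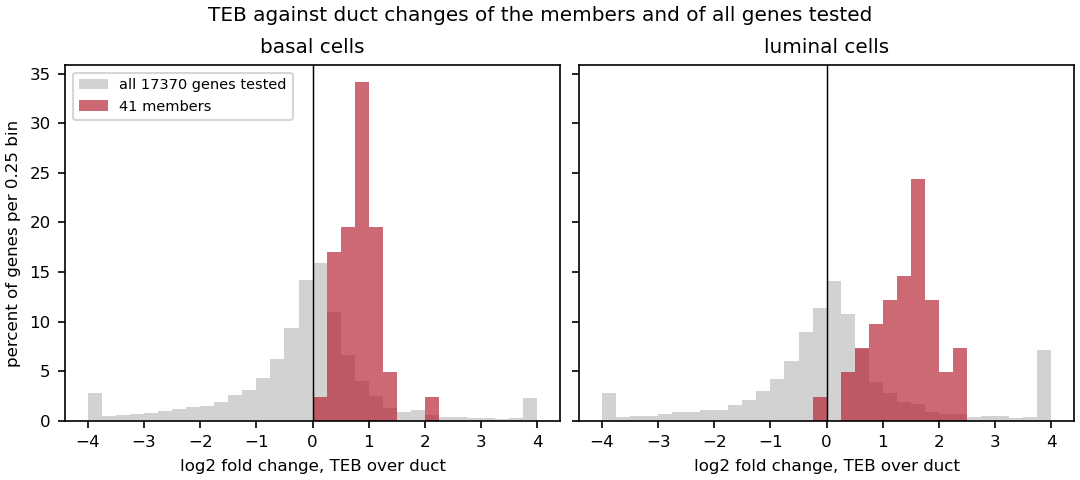
Distribution of the log2 fold change between TEB and duct (horizontal axis, bins of 0.25) for all 17370 genes tested (grey) and the 41 genes (red), as percent of each set, in basal cells (left) and luminal cells (right); values beyond 4 in either direction are placed in the end bins. The red bars lie right of 0 in basal cells, and in luminal cells all but Pttg1 do, centred at medians of 0.84 and 1.49.

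**Figure D4:**
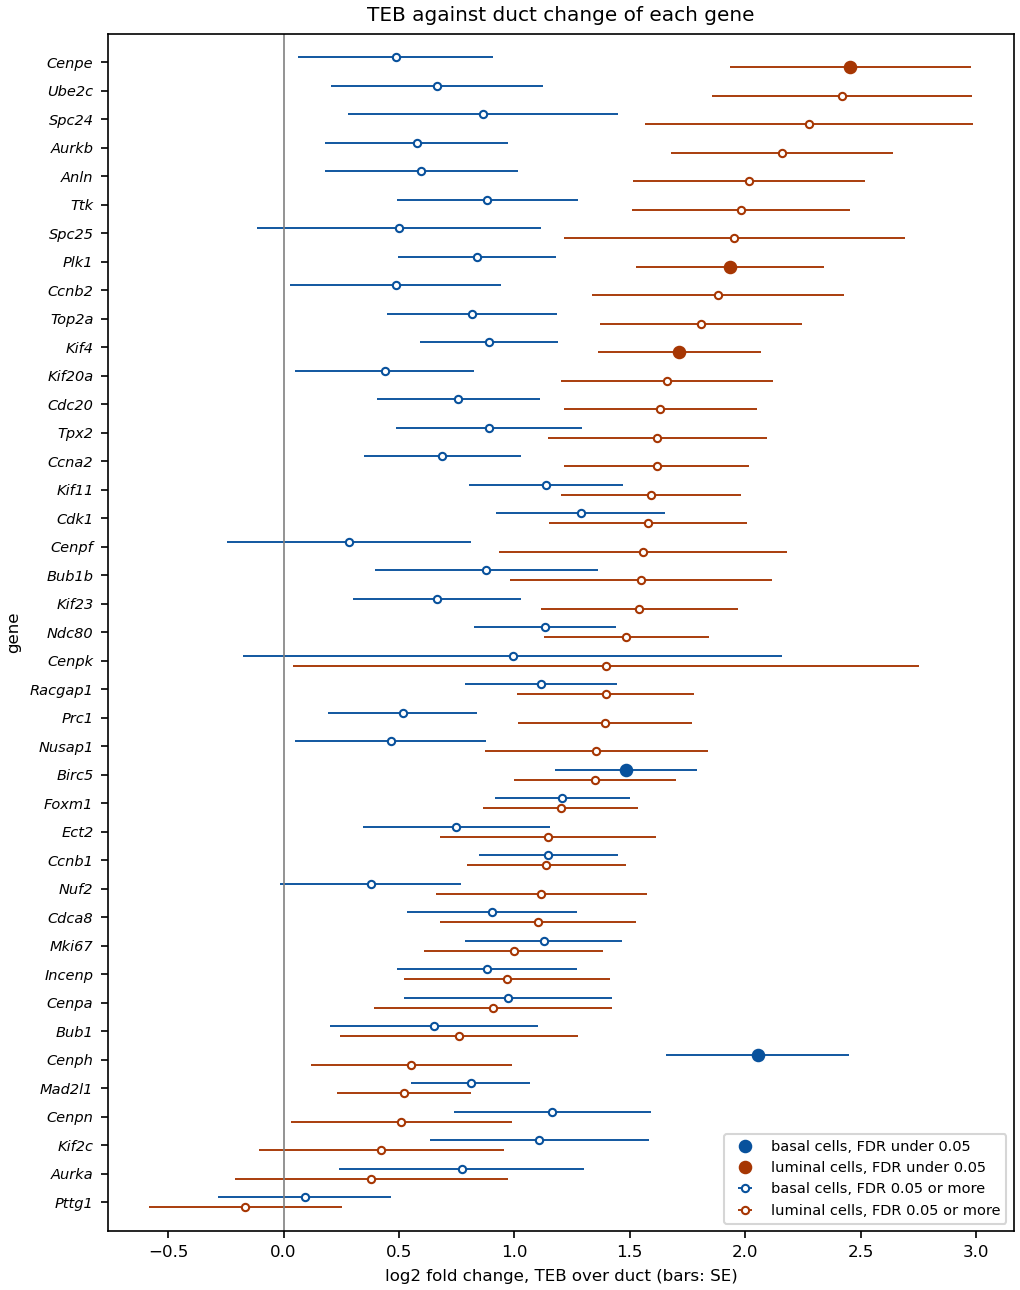
Log2 fold change between TEB and duct (horizontal axis) with its SE for each of the 41 genes, in basal (blue) and luminal cells (brown), ordered by the luminal value; filled points passed an FDR of 0.05. Cenpe, Ube2c and Spc24 head the luminal values, Cenph stands out among the basal ones at 2.05, and Pttg1 lies next to 0 in both.

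Mki67 encodes the antigen Ki-67, which coats mitotic chromosomes and is the customary stain for cycling cells. It was at 311, 117 and 338 CPM in basal duct and 456, 492 and 725 CPM in basal TEB, without overlap. In luminal cells it was at 159 and 227 CPM in duct and 395, 366 and 395 CPM in TEB, also without overlap. The log2 fold change was 1.13 (SE 0.34, FDR 0.156) in basal and 1.00 (SE 0.39, FDR 0.222) in luminal cells, so neither passed the test. Top2a, the DNA topoisomerase that untangles sister chromatids, was at 200.1, 65.6 and 211 CPM in basal duct and 185, 328 and 327 CPM in basal TEB. It was at 101 and 80.2 CPM in luminal duct and at 306, 295 and 353 CPM in luminal TEB. In basal cells TEB replicate 1 lay among the ductal libraries, whereas in luminal cells the groups were far apart. The change was 0.82 (SE 0.37, FDR 0.336) in basal and 1.81 (SE 0.44, FDR 0.068) in luminal cells.

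7 genes act in entry into mitosis: the cyclins Ccna2, Ccnb1 and Ccnb2, their kinase Cdk1, the transcription factor Foxm1 and the kinases Plk1 and Aurka, which mature the centrosomes. All 7 had a log2 fold change above 0 in both cell types, with medians of 0.84 in basal and 1.58 in luminal cells, and 1 passed the test, Plk1 in luminal cells. Plk1 was at 10.4 and 12.9 CPM in luminal duct and 43.3, 36.7 and 53.4 CPM in luminal TEB, a log2 fold change of 1.93 (SE 0.41, FDR 0.0439). In basal cells it was at 25.3, 11.8 and 30 CPM in duct and 27.9, 47.4 and 44.2 CPM in TEB, where the groups overlapped (0.84, SE 0.34, FDR 0.295). The call in luminal cells was kept in 10 of 24 alternatives; it was kept without basal duct replicate 2 or basal TEB replicate 1 and lost without any other 1 library, with FDR values up to 0.174. Foxm1, which switches on many genes of this class, was at 23.5, 11.2 and 25.4 CPM in basal duct and 44.9, 52.1 and 41.8 CPM in basal TEB. Luminal duct held 20.7 and 25.6 CPM, and luminal TEB 57.6, 44.1 and 57.8 CPM. Both cell types showed nearly the same change, 1.21 (SE 0.29, FDR 0.0782) in basal and 1.20 (SE 0.34, FDR 0.102) in luminal cells, and in neither did the groups overlap.

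Ccnb1, the main mitotic cyclin, was at 30.8, 16.8 and 39.4 CPM in basal duct and at 63.5, 66.1 and 63.2 CPM in basal TEB. Its luminal levels were 12.5 and 21.6 CPM in duct and 37.3, 35.0 and 40.2 CPM in TEB. Again neither pair of groups overlapped, with changes of 1.15 (SE 0.30, FDR 0.104) and 1.14 (SE 0.34, FDR 0.126). A processed copy, Ccnb1-ps, was counted as a gene of its own with up to 1598 counts in a library, so part of the reads of Ccnb1 may lie there or be left uncounted. Cdk1 was at 59.4, 15.8 and 52.3 CPM in basal duct and 95.3, 108 and 108 CPM in basal TEB. It was at 33.5 and 25.9 CPM in luminal duct and 82.2, 85.1 and 99.2 CPM in luminal TEB. Its change was among the 3 largest in basal cells (1.29, SE 0.37, FDR 0.131) and was 1.58 (SE 0.43, FDR 0.0945) in luminal cells. Aurka departed from the others in luminal cells: it was at 34.0 and 53.6 CPM in duct and at 52.4, 55.1 and 63.3 CPM in TEB, so the groups overlapped (0.38, SE 0.59, FDR 0.791). In basal cells it was at 17.1, 8.74 and 22.6 CPM in duct and at 6.58, 38.3 and 37.4 CPM in TEB (0.77, SE 0.53, FDR 0.542), with its lowest level of all libraries in basal TEB replicate 1. Aurka overlaps the neighbouring gene Cstf1 by 242 bases, and the libraries do not keep strand.

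**Figure D5:**
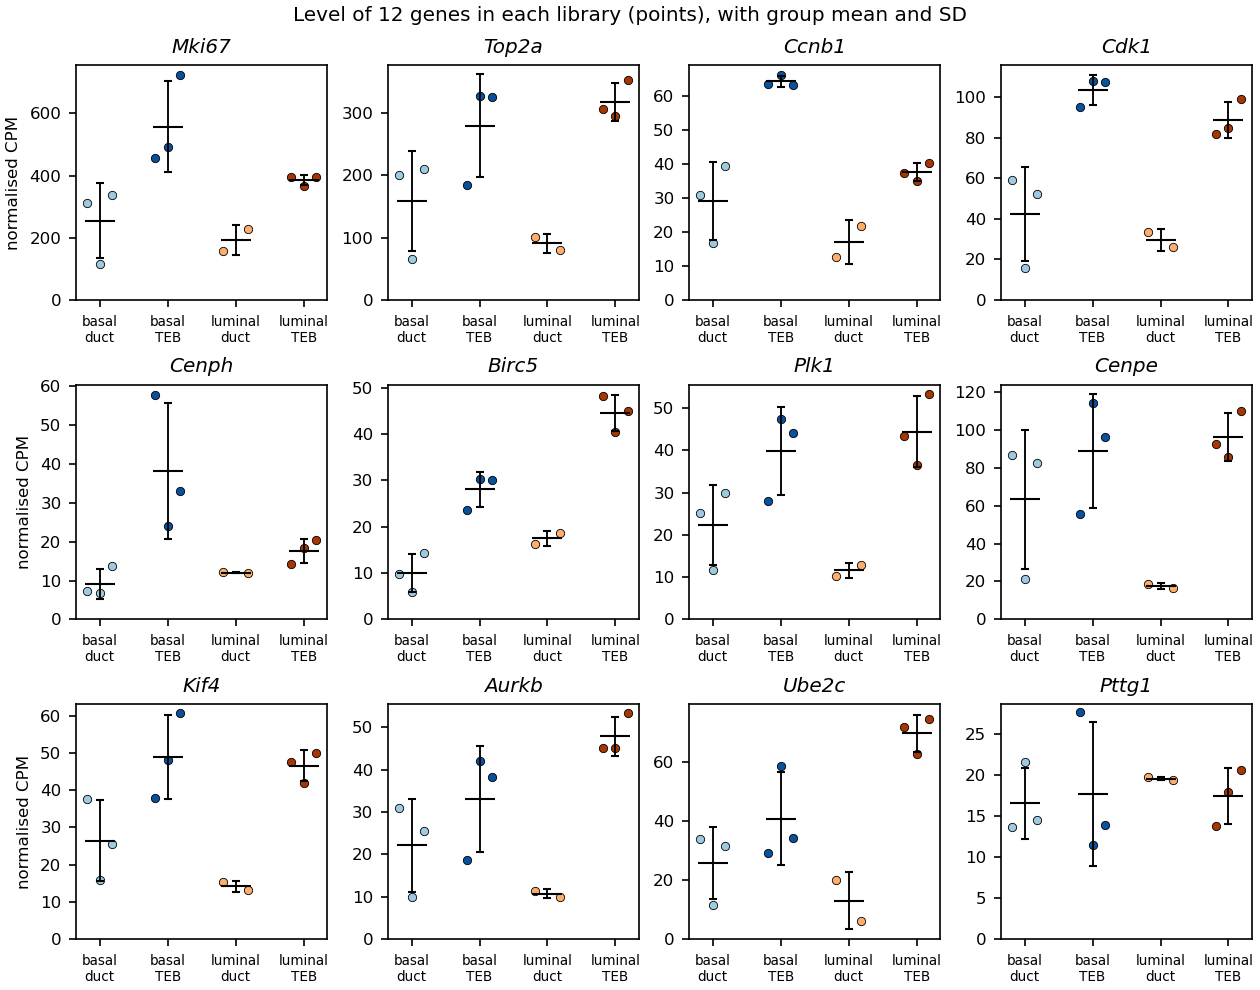
Normalised CPM (vertical axes, from 0) of 12 genes in each library (points) by group, with the group mean (long bar) and SD (error bars); n = 3 except luminal duct, n = 2. For Birc5, Ccnb1, Cdk1, Mki67, Kif4 and Cenph no TEB library falls to the level of the ductal libraries of its cell type, for Top2a, Plk1, Cenpe, Aurkb and Ube2c this holds in luminal cells only, and Pttg1 overlaps in both.

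The spindle checkpoint genes Bub1, Bub1b, Ttk and Mad2l1 encode the kinases and the inhibitor that hold back anaphase until kinetochores are attached. All 4 had a change above 0 in both cell types, with medians of 0.85 in basal and 1.15 in luminal cells. None passed the test in edgeR's quasi-likelihood fit (lowest FDR 0.18 and 0.0644). In each cell type 2 genes had an unadjusted p under 0.05 (6.62% of all genes were higher in basal and 8.38% in luminal cells). Ttk showed the largest luminal change of the 4, from 4.55 and 8.64 CPM in duct to 24.1, 25.5 and 28.4 CPM in TEB (1.98, SE 0.47). Its basal levels were 11.3, 9.81 and 27.0 CPM in duct and 31.1, 29.7 and 28 CPM in TEB (0.88, SE 0.39, FDR 0.333). Mad2l1 was the only gene of the 4 whose basal change (0.81) exceeded the luminal one (0.52).

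The chromosomal passenger complex joins the kinase Aurkb to Birc5, Incenp and Cdca8, and corrects faulty attachments before it moves to the midzone. Birc5, also known as survivin, was 1 of the 2 genes called in basal cells. It was at 9.76, 6.03 and 14.4 CPM in basal duct and 23.7, 30.4 and 30.1 CPM in basal TEB, a log2 fold change of 1.48 (SE 0.31, FDR 0.0415). Its luminal levels were 16.3 and 18.7 CPM in duct and 48.2, 40.4 and 45.1 CPM in TEB (1.35, SE 0.35, FDR 0.0842). The changes were alike in size, and the TEB libraries were above the ductal ones in both cell types. The basal call was kept in 13 of 24 alternatives (FDR up to 0.293). It was lost without basal duct replicate 1 (FDR 0.163) or 2 (FDR 0.104), without any 1 basal TEB library (FDR 0.0523 to 0.163) and without any 1 luminal TEB library (FDR 0.0871 to 0.1004). For Aurkb the cell types differed more. It was at 31.0, 9.89 and 25.4 CPM in basal duct and 18.7, 42.0 and 38.1 CPM in basal TEB, which overlapped (0.58, SE 0.40, FDR 0.543). Luminal levels were 11.4 and 9.95 CPM in duct and 45.2, 45.0 and 53.2 CPM in TEB, and the change of 2.16 (SE 0.48) just missed the threshold at an FDR of 0.0521. For Incenp and Cdca8 the values were 0.88 and 0.90 in basal and 0.97 and 1.10 in luminal cells, and neither passed the test.

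Of the inner centromere genes, Cenpa encodes the histone that marks centromeres, and Cenph, Cenpk and Cenpn encode parts of the assembly built on it. This was the only role group whose median change was larger in basal (1.08) than in luminal cells (0.73). Cenph had the largest basal change of the 41. It was at 7.2, 6.71 and 13.6 CPM in basal duct and at 57.7, 24.0 and 32.9 CPM in basal TEB, a log2 fold change of 2.05 (SE 0.40, FDR 0.0299). Its luminal levels were 12.1 and 12 CPM in duct and 14.3, 18.3 and 20.3 CPM in TEB (0.55, SE 0.43, FDR 0.539). The highest value came from basal TEB replicate 1, the library of the highest mitochondrial share. Without that library the change was 1.64 and the FDR 0.0751, and without basal duct replicates 1 and 2, in turn, it was 1.86 (FDR 0.131) and 1.87 (FDR 0.127). The call was also lost without basal TEB replicate 3 (FDR 0.0983) and without any 1 luminal TEB library (FDR 0.0574 to 0.0601), and was kept in 13 of 24 alternatives. Cenph lies on chromosome 13 (100759674 to 100775903), 2835 bases from Ccnb1 (100778739 to 100786486) on the same strand. In that same library Cenpk, a partner of Cenph in the kinetochore, had no count, whereas the other basal TEB replicates had 12.3 and 17.1 CPM and the basal duct replicates 5.71, 4.03 and 5.08 CPM. With that spread the change of Cenpk (0.99, SE 1.17, FDR 0.756) did not pass the test. Cenpk was called higher in basal TEB, with Birc5, when both libraries of highest mitochondrial share were left out. In luminal cells Cenpk was at 5.35 and 2.10 CPM in duct and 9.37, 9.93 and 10.2 CPM in TEB. Cenpk overlaps Ppwd1 by 234 bases and Cenpn overlaps Cmc2 by 19789 bases, and these reads cannot be told apart by strand.

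The outer kinetochore genes had the widest gap between the cell types in median change. Ndc80, Nuf2, Spc24 and Spc25 form the rod that grips microtubules, Cenpe is the motor that brings chromosomes to the spindle equator, and Cenpf joins the kinetochore in G2. The 6 genes had a median change of 0.49 in basal and 1.76 in luminal cells. An unadjusted p under 0.05 was reached by 6 of 6 in luminal cells (8.38% of all genes were higher at this p). In basal cells it was reached by 1 of 6 (6.62%). In the direct quasi-likelihood test of the difference between both changes 0 of the 6 were called. There 1 had an unadjusted p under 0.05, and the lowest FDR was 0.204. Cenpe was at 18.5 and 16.4 CPM in luminal duct and 92.7, 85.4 and 110.0 CPM in luminal TEB, the largest luminal change of the 41 (2.46, SE 0.52, FDR 0.0447). In basal cells it was at 86.6, 21.1 and 82.3 CPM in duct and at 55.7, 114 and 96.1 CPM in TEB, and the groups overlapped (0.49, SE 0.42, FDR 0.653). Thus basal duct replicates 1 and 3 held about as much Cenpe as the TEB libraries, and luminal ducts and basal duct replicate 2 far less. The luminal call was kept in 10 of 24 alternatives; without basal duct replicate 2 or basal TEB replicate 1 it was kept, and without any other 1 library it was lost, with FDR values up to 0.183.

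Ndc80 was the outer kinetochore gene with the clearest basal change, from 14.5, 11.2 and 21.9 CPM in duct to 28.5, 30.9 and 44.9 CPM in TEB (1.13, SE 0.31, FDR 0.114). The luminal values were 9.26 and 10.9 CPM in duct and 29.1, 24.6 and 31.1 CPM in TEB (1.49, SE 0.36, FDR 0.068). Its groups did not overlap in either cell type. Spc24 had the third largest luminal change, from 7.78 and 3.82 CPM to 29.7, 25.7 and 29.2 CPM (2.27, SE 0.71, FDR 0.138), and a basal change of 0.86 (SE 0.58, FDR 0.535). Spc25 was at 1.52 CPM in luminal duct replicate 3, against 17.1 CPM in replicate 1, so its luminal change of 1.95 had an SE of 0.74. The smallest basal changes after Pttg1 were those of Cenpf and Nuf2. Cenpf was at 80.5, 16.2 and 68.6 CPM in basal duct and 26.6, 86.3 and 88.1 CPM in basal TEB (0.28, SE 0.53, FDR 0.867), and its sign turned to -0.15 without basal duct replicate 2. Its luminal levels were 25.6 and 44.5 CPM in duct and 98.6, 97.4 and 113 CPM in TEB (1.56, SE 0.62, FDR 0.237). Nuf2 was at 47.9, 13.1 and 27.4 CPM in basal duct and 33.8, 37.8 and 43.2 CPM in basal TEB (0.38, SE 0.39, FDR 0.716), and its luminal change was 1.12 (SE 0.46, FDR 0.247).

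Among the spindle genes, Kif11 is the motor that pushes spindle poles apart, Kif4 and Kif2c act on chromosome arms and on microtubule ends, and Tpx2 and Nusap1 promote microtubule assembly at chromosomes. All 5 had changes above 0 in both cell types, with medians of 0.89 in basal and 1.59 in luminal cells. Kif4 had the lowest FDR of the 41 in luminal cells, at 15.2 and 13.1 CPM in duct and 47.6, 41.9 and 50.1 CPM in TEB (1.71, SE 0.35, FDR 0.0393). In basal cells it was at 37.6, 16.0 and 25.5 CPM in duct and at 38.0, 48.0 and 60.7 CPM in TEB (0.89, SE 0.30, FDR 0.203). The ranges did not overlap in either cell type, by a narrow margin in basal cells. The luminal call was kept in 12 of 24 alternatives and was lost without basal duct replicate 3, basal TEB replicate 2 or 3, luminal duct replicate 3 or any 1 luminal TEB library (FDR 0.0539 to 0.158). Its pseudogene Kif4-ps held 0 counts. Kif2c had the larger value in basal cells. It was at 31.0, 5.5 and 30.8 CPM in basal duct and 47.6, 48.4 and 49.2 CPM in basal TEB (1.11, SE 0.47, FDR 0.313). In luminal cells it was at 23.2 and 31.7 CPM in duct and 35.0, 32.7 and 42.8 CPM in TEB, 1 of the 3 smallest changes there (0.42, SE 0.53, FDR 0.728).

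The midzone and cytokinesis genes Prc1, Kif20a, Kif23, Racgap1, Ect2 and Anln bundle the central spindle, position the cleavage plane and build the contractile ring. Their median change was 0.63 in basal and 1.47 in luminal cells, and none passed the test in edgeR's quasi-likelihood fit. At an unadjusted p under 0.05 there were 1 and 6 of the 6 (6.62% and 8.38% of all genes were higher at this p). In the quasi-likelihood test of the difference between both changes 1 of the 6 had an unadjusted p under 0.05 (lowest FDR 0.326). Anln, the actin scaffold of the ring, was at 48.5 and 26.5 CPM in luminal duct and 154, 138 and 164 CPM in luminal TEB (2.02, SE 0.50, FDR 0.0749). In basal cells it was at 67.1, 17.1 and 67.8 CPM in duct and 70.8, 96.8 and 62.1 CPM in TEB, which overlapped (0.60, SE 0.42, FDR 0.552). Racgap1 had the largest basal change of the 6 (1.12, SE 0.33). Reads shared with overlapping genes are possible for Prc1, whose span shares 21669 bases with Rccd1, and for Kif20a, which shares 4930 bases with Cdc23.

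The 3 genes of anaphase control parted ways. Cdc20 activates the anaphase-promoting complex (APC/C), the ubiquitin ligase that ends mitosis, Ube2c is its E2 enzyme, and Pttg1 is securin, which the APC/C destroys. Ube2c was at 19.8 and 6.13 CPM in luminal duct and 71.9, 62.7 and 74.5 CPM in luminal TEB (2.42, SE 0.56, FDR 0.0612). In basal cells it was at 33.8, 11.6 and 31.6 CPM in duct and 29.2, 58.6 and 34.2 CPM in TEB (0.66, SE 0.46, FDR 0.545). For Cdc20 the value was 1.63 (SE 0.42, FDR 0.0785) in luminal and 0.76 (SE 0.35, FDR 0.354) in basal cells. Pttg1 was at 13.6, 21.5 and 14.5 CPM in basal duct and 27.6, 11.5 and 13.9 CPM in basal TEB. In luminal cells it was at 19.7 and 19.4 CPM in duct and 13.7, 17.9 and 20.5 CPM in TEB. Its change was 0.09 (SE 0.37, FDR 0.952) in basal cells, with a 95% interval from -0.73 to 0.91, and -0.17 (SE 0.42, FDR 0.886) in luminal cells, with an interval from -1.08 to 0.74. It was the 1 gene with a luminal value below 0, and the sign turned in either cell type under some alternatives.

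Whether the TEB change differed between the cell types was tested as the interaction of both factors (basal change minus luminal change). None of the 41 genes passed an FDR of 0.05 in edgeR's quasi-likelihood test, where 0.443% of all genes did. Of all genes, 0.0806% passed with a difference above 0 and 0.363% with a difference below 0. At an unadjusted p under 0.05 there were 5 of the 41. For 1 of them the difference was above 0 (6.71% of all genes) and for 4 below 0 (8.02%). Over all genes this sign does not tell which cell type changed more, because genes lower in TEB are included. The likelihood ratio test, DESeq2 and limma voom also called 0. The median difference was -0.67, against -0.13 over all genes, and 11 of 41 were above 0. The lowest FDR was that of Cenpe (-1.97, SE 0.65, FDR 0.204), followed by Aurkb (-1.58, SE 0.60, FDR 0.254), Cenph (1.5, SE 0.57, FDR 0.254), Ube2c (-1.75, SE 0.70, FDR 0.274) and Anln (-1.42, SE 0.63, FDR 0.326). Cenph thus had the opposite sign to the other 4. Among the marker genes the difference was 0.13 (SE 0.50) for Mki67, with a 95% interval from -0.97 to 1.23, 0.01 (SE 0.45) for Ccnb1 and 0.01 (SE 0.43) for Foxm1, and -0.99 (SE 0.55, interval -2.20 to 0.22) for Top2a. Without basal duct replicate 2 the median difference was -1.08 and Cenpe was called, and without basal duct replicate 1 it was -0.28 with none called; without luminal duct replicate 1 it was -0.54 and Spc25 was called.

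Within 1 structure, the cell types were compared directly. In ducts 34 of 41 genes had the higher level in basal cells (52.5% of all genes), with a median log2 difference of 0.50 against 0.08, and 1 was called, Cenpe (1.86, SE 0.51, FDR 0.0204), where 22.3% of all genes were called, 12.6% higher and 9.71% lower in basal cells. Basal and luminal ducts did not overlap for 6 of the 41: Ttk, Ndc80, Cenpe and Kif4 were higher in basal cells (4 genes, against 24.8% of all genes), and Aurka and Birc5 were higher in luminal cells (2 genes, against 21.2%). Without basal duct replicate 2 the median was 0.85 and 16 genes were called, all higher in basal cells, and 20.2% of all genes were called. The count was 0 without basal duct replicate 1. Without basal TEB replicate 1 it was 2 (Cenpe, and Aurka lower in basal cells). Without basal duct replicate 3 it was 1, which was Birc5, lower in basal cells. In these fits 17.8% to 27.6% of all genes were called. Without luminal duct replicates 1 and 3, in turn, 1 luminal duct library was left, and the median was 0.54 and 0.65. In TEBs 20 of 41 had the higher level in basal cells (51.5% of all genes), the median was -0.02 against 0.04, and none was called in edgeR's quasi-likelihood test, where 25.1% of all genes were (13.2% higher and 11.8% lower in basal cells). There 4 genes had an unadjusted p under 0.05, Cenph and Ccnb1 higher and Anln and Birc5 lower in basal cells. The lowest FDR was that of Cenph (1.11, SE 0.39, FDR 0.0551). DESeq2 and the likelihood ratio test called 1 gene each, Cenph, and limma voom 3. Of all genes the likelihood ratio test called 30.8% and limma voom 30.1%, and DESeq2 called 34.2% of those it gave an FDR. Without basal duct replicate 2 the count was 2 (Ccnb1 and Anln). It was 1 without basal duct replicate 3 or basal TEB replicate 2 (Cenph) and without basal TEB replicate 1 (Mad2l1). In these fits 23.9% to 25.7% of all genes were called. The groups did not overlap for 5 genes higher and 10 genes lower in basal cells (22.6% and 27.2% of all genes). These 4 comparisons between pairs of groups share libraries and are not independent of each other.

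Other genes of cell division were read from lists outside the 41. Of 32 other kinetochore genes, 0 were called in basal and 1 in luminal cells, Mad1l1 of the checkpoint (1.14, SE 0.23, FDR 0.0395), with medians of 0.77 and 1.01. Of 18 condensin and cohesion genes, which fold and hold chromatids, 0 and 1 were called, the condensin II subunit Ncapg2 (1.83, SE 0.32, FDR 0.0209), with medians of 0.72 and 1.08. Of 32 other spindle and cytokinesis genes, 0 and 2 were called, the spindle pole protein Aspm (2.43, SE 0.41, FDR 0.018) and the kinase Nek2 (2.10, SE 0.43, FDR 0.0393), with medians of 0.71 and 1.39. The 17 genes of the APC/C list, 14 subunits with the activator Fzr1, the inhibitor Fbxo5 and the E2 enzyme Ube2s, had medians of 0.22 and 0.38, with 0 called. Of the 39 DNA replication genes 0 and 5 were called, among them the helicase subunits Mcm3 (1.58, SE 0.30) and Mcm6 (1.5, SE 0.28), the ribonucleotide reductase subunit Rrm2 (1.77, SE 0.31) and the histone chaperone subunit Chaf1a (1.72, SE 0.30), with medians of 0.68 and 1.24. All 9 of these calls were higher in TEB, in luminal cells. Of all genes tested, 0.167% were called higher in basal and 0.639% in luminal TEB. These 9 calls were not followed through the alternatives. The luminal calls over all genes numbered 245, against 37 without luminal TEB replicate 3 and 10 with library totals.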

How the data were processed

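RNA was sequenced from 11 libraries of 4 groups, and 11 per-library tables equal to the series table were read. Per the labels and the study's methods, the authors used Rsubread and featureCounts, with mm10 and its inbuilt RefSeq annotation, to align read pairs and count them per Entrez gene (an unstranded kit); the deposited values are these raw counts, whole and not normalised. The third luminal duct sample had too few cells and was dropped by the authors. Symbols and positions came from RefSeq (GRCm38). From the counts, genes were filtered with filterByExpr (minimum count 10, total 15), leaving 17370 of 27179, scaled by TMM and fitted in 1 model of 4 groups with edgeR 4.0.16 (R 4.3.3, glmQLFit and glmQLFTest, 7 residual degrees of freedom), where the study used glmFit. Calls are at a Benjamini-Hochberg FDR of 0.05 over all genes tested, the SE was taken as the size of the change over the root of F, and intervals are at 95%. The common biological coefficient of variation was 0.704. Precision is limited by the spread between replicates and by totals of 27989137 to 49221436 counts. Replicates of 1 group are separate pools, and the main model does not account for pools shared between groups.

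The members, the lists and the tests were chosen with earlier results of these data known. Full values are given for genes called in a TEB against duct comparison or in their difference, the 5 of lowest p and the 3 of largest and smallest change in each, and Mki67, Top2a, Ccnb1, Cdk1 and Foxm1. Genes of the other cell cycle lists are named only where called in a TEB against duct comparison, at most the 4 of largest change per list; calls of these lists between cell types are not named. Of 255 genes on all lists 254 were matched. No 2 libraries of 1 group agreed within sampling noise (lowest chi-square per gene 34.4). Alternatives were DESeq2 (1.42.0) size factors and Wald test, upper-quartile scaling, library totals, removal of mitochondrial genes, other filters, the likelihood ratio test, limma voom (3.58.1) without and with sample weights, the replicate block, each library left out, both libraries of highest mitochondrial share left out, and only the groups compared. Scripts were tested on simulated data.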

Additional observations from a re-analysis of the deposited data

How the results depend on the processing

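The direction held widely, and the number of calls and the genes called did not. In basal cells 39 to 41 of the 41 genes had a log2 fold change above 0 in every alternative, and in luminal cells 40 or 41. The basal count of 2 was 0 with library totals, with only the groups compared and at an FDR of 0.01. It was 1 with mitochondrial genes removed and 9 with the likelihood ratio test or the DESeq2 Wald test. With limma voom it was 8, and 5 with its sample weights. Of all genes, 0.328% were called with library totals, 1.21% with only the groups compared and 1.28% with mitochondrial genes removed. The share was 4.07% with the likelihood ratio test, 6.16% with DESeq2, 3.46% with limma voom and 2.37% with sample weights. Shares for the DESeq2 test are over the genes to which it gave an FDR. The luminal count of 3 was 0 with library totals, the replicate block and an FDR of 0.01, and 11 with no filter. It was 23 with the likelihood ratio test, 22 with DESeq2, 1 with sample weights and 24 with only the groups compared. Limma voom called 3 others, Top2a, Birc5 and Anln, and the gene called with sample weights was Top2a. Of all genes, 0.0576% were called with library totals, 0.72% with the block and 1.67% with no filter. The share was 5.79% with the likelihood ratio test, 8.62% with DESeq2 and 2.02% with limma voom. It was 1.78% with sample weights and 3.92% with only the groups compared. Without both libraries of highest mitochondrial share, which leaves 1 luminal duct library, the luminal median was 1.60. In ducts the count of 1 was 0 with library totals, sample weights, only the groups compared and an FDR of 0.01. It was 3 with the likelihood ratio test and 2 with DESeq2. Limma voom called 1, which was Aurka, lower in basal cells, and not Cenpe. Of all genes, 15.9%, 18.5% and 17.1% were called with library totals, sample weights and only the groups compared. The share was 28.8% with the likelihood ratio test, 30.6% with DESeq2 and 28.6% with limma voom. In TEBs the count of 0 was 1 with a mean CPM of at least 1, with the likelihood ratio test and with DESeq2. It was 3 with limma voom, 10 with sample weights and 6 with only the groups compared. Of all genes, 32.2% were called with that filter, 30.8% with the likelihood ratio test and 34.2% with DESeq2. The share was 30.1% with limma voom, 41.1% with sample weights and 34.5% with only the groups compared. The difference of the changes had 0 calls in each of these settings in which it was fitted, which leaves out the fits with only the groups compared. Library totals shifted the median of all genes to -0.16 in basal and 0.42 in luminal cells, and the median difference of the members to -1.23 from -0.67, against -0.63 over all genes.

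With 1 library left out, counts ranged from 0 to 2 in basal cells, 0 to 22 in luminal cells, 0 to 1 for the difference, 0 to 16 in ducts and 0 to 2 in TEBs, and medians from 0.47 to 1.03, from 1.36 to 1.58, from -1.08 to -0.28, from 0.28 to 0.85 and from -0.18 to 0.08. Where an arm kept 1 library, it is assumed to vary like the other groups. The sign turned for Pttg1 in basal cells with library totals (-0.18), limma voom (-0.18), sample weights (-0.22), without basal duct replicate 1 (-0.07), without basal TEB replicate 1 (-0.37) and without both libraries of highest mitochondrial share (-0.37), in luminal cells with library totals (0.22), and for Cenpf in basal cells without basal duct replicate 2 (-0.15). With 1 library left out the basal value ranged from -0.37 to 0.33 for Pttg1 and from -0.15 to 0.67 for Cenpf. Same-numbered libraries did not deviate together throughout (correlations of -0.0677 to 0.163 over 15 pairs, 4 above 0.1). Of 11 libraries, 7 correlated best with their own number, and pairs of other numbers reached 0.137. Deviations were taken within groups, so the 2 luminal duct libraries mirror each other and the matches are not independent. The count therefore cannot decide whether equal numbers share a pool, which the labels do not state. With the replicate block the counts were 2 in basal and 0 in luminal cells, with medians of 0.90 and 1.62. Luminal ducts rest on 2 libraries, which limits every luminal comparison.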

Other observations

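Genes that regulate the division programme without themselves belonging to mitosis were read from 2 further lists. Of 20 DREAM and RB genes, which repress or activate cell cycle promoters, 13 had a log2 fold change above 0 in basal and 13 in luminal cells, with medians of 0.30 and 0.25, and 1 was called. This was Rb1, the retinoblastoma repressor, which was lower in luminal TEB than in luminal duct (-1.11, SE 0.22, FDR 0.0324 in the quasi-likelihood test of edgeR). Of all genes tested in luminal cells, 0.771% were called lower and 1.41% in all. The Rb1 call was not followed through the alternatives. Of the 7 CDK inhibitors, which hold cyclin-dependent kinases inactive, 0 were called between TEB and duct in either cell type. No explanation was tested for either list.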
